A study of Mus musculus with 6 samples.

Results

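Type IV collagen is the network-forming collagen of basement membranes, the thin sheets of matrix that underlie epithelia and endothelia and surround some other cells. Its chains assemble as heterotrimers. The chain encoded by Col4a1 pairs with the Col4a2 chain in nearly every basement membrane, including that of the skin and its vessels. The chain encoded by Col4a3 assembles with the Col4a4 and Col4a5 chains in a network best known from the kidney glomerulus, the lung and the inner ear, and loss of it causes Alport syndrome. Non-collagenous end domains released from both chains have been studied as inhibitors of angiogenesis, under the names arresten for the Col4a1 fragment and tumstatin for the Col4a3 fragment.

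The array used here holds assays for both Col4a1 (NM_009931) and Col4a3 (NM_007734). They were taken by gene symbol and are 2 of the 84 wound healing genes measured. The partner chains Col4a2, Col4a4 and Col4a5 were not analysed here.

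RNA came from primary fibroblasts of neonatal C57BL/6 mice, between the third and the fifth passage, whose monolayer had been scratched. The control group received plain DMEM and the DS group received dermatan sulfate, a sulfated glycosaminoglycan purified from Styela plicata, a marine ascidian, while mitomycin C, which blocks proliferation, was present in both. The methods give 50 µg/mL of DS, a value that the labels list among several concentrations. For the time, the labels name 24 h of DS in the source of the samples and 72 h of incubation in the treatment protocol, and the methods name a duration different from both. Each group had 3 cultures, described as biological triplicates, with 1 array of 96 wells per culture. The readout was the CT, the cycle at which fluorescence crosses a threshold, and more template gives an earlier CT, by 1 cycle per doubling at full amplification efficiency.

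The arrays differed between the groups well beyond the collagen IV chains. Of the 89 gene assays, 25 to 26 reached the threshold by cycle 36, the cutoff for detection, in the control arrays and 58 to 60 in the DS arrays. The fibroblast markers Col1a1, Col1a2 and Col3a1 gave no CT in any control array and gave one in all 3 DS arrays. Markers of the labelled cell type were thus detected in DS only, and not as the earliest markers there. Among markers of other cells, the epithelial Itgb6 and the contractile Tagln were likewise detected in DS only, the epithelial Cdh1 and the cardiac Actc1 gave a CT over the cutoff in DS and none in control, and Acta2 gave none at all. Of the T cell markers, Cd40lg was detected in DS only, Il4 in control only and Il2 in neither. The part of these differences in the results was not tested, and fewer cells of a type cannot be told apart from less RNA per cell.

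Both collagen IV chains were measured in all 6 arrays, and they changed in opposite directions. Under DS, Col4a1 rose about 5.23-fold and Col4a3 fell about 1563-fold relative to the normalizing genes. With the array's 5 housekeeping genes as reference, of which only Hsp90ab1 had a CT in control, both fell.

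In the control arrays the CT of Col4a1 was 32.45, 33.0 and 32.77. In the DS arrays it was 29.66, 30.55 and 30.82. Every DS array was earlier than every control array, and the nearest values of both groups were 1.63 cycles apart.

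The Col4a1 CT in control averaged 32.7 ± 0.276 (SD, n = 3), and that in DS 30.3 ± 0.607 (SD, n = 3). To normalize, the average CT of 3 genes (Hsp90ab1, Ccl7, Egfr) of the array was subtracted and the sign reversed, which gives −ΔCT on a log2 scale. Its mean was −2.44 ± 0.316 (SD, n = 3) for control and −0.05 ± 0.595 (SD, n = 3) for DS. The log2 fold change was 2.39 with a standard error of 0.38 (95% confidence interval 1.50 to 3.27, adjusted p = 0.000307, limma with Benjamini-Hochberg adjustment). As a fold on the linear scale this is 5.23, with an interval from 2.83 to 9.68. In the methods' t-test on 2 to the power of −ΔCT, Col4a1 passed the threshold of 0.05 unadjusted, and after adjustment over the 64 tested genes it did not.

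The CT of Col4a3 in the control arrays was 22.23, 21.92 and 22.63. In the DS arrays it was 32.27, 33.46 and 32.85. Again the groups did not overlap, here with every DS array later than every control array and a gap of 9.64 cycles between the nearest values.

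The Col4a3 CT in control averaged 22.3 ± 0.356 (SD, n = 3), and that in DS 32.9 ± 0.595 (SD, n = 3). On the −ΔCT scale the means were 8.04 ± 0.451 (SD, n = 3) and −2.57 ± 0.587 (SD, n = 3). The log2 fold change was −10.61 with a standard error of 0.40 (95% confidence interval −11.54 to −9.68, adjusted p = 2.04e-08, limma with Benjamini-Hochberg adjustment). The corresponding linear fold is a 1563-fold lower level, with an interval from 818 to 2985. For each chain the exact permutation test on −ΔCT gave the smallest two-sided p that 3 arrays against 3 allow, 0.1.

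**Figure D1:**
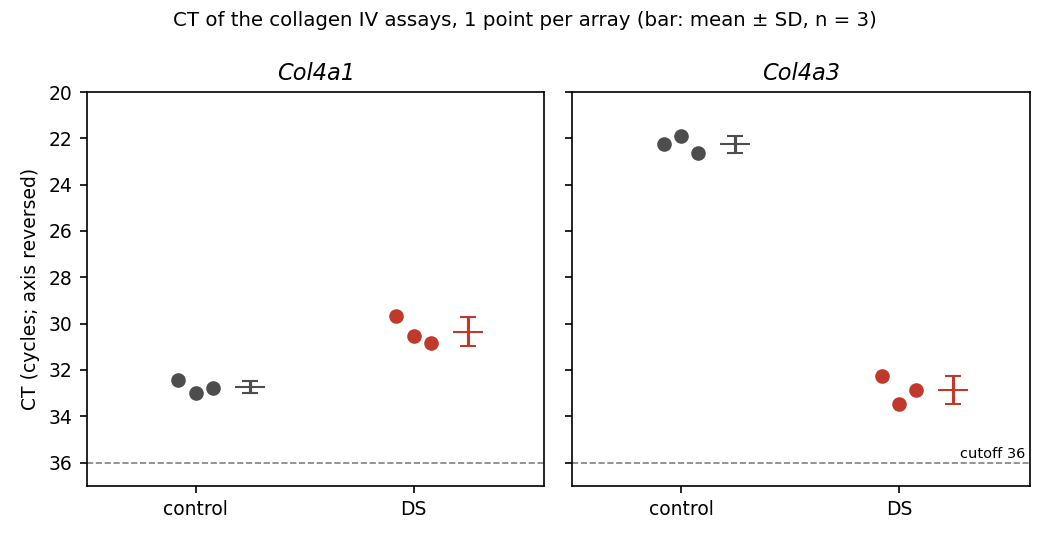
CT in cycles for Col4a1 (left) and Col4a3 (right), on a reversed axis so that more template lies higher, with 1 point per array and the mean ± SD (n = 3) beside the points. The DS points lie above the control points for Col4a1 (29.66 to 30.82 against 32.45 to 33.0) and below them for Col4a3 (32.27 to 33.46 against 21.92 to 22.63), and all points are earlier than the dashed cutoff of 36.

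The spread between arrays was similar for both chains. Within DS, replicate 1 gave the earliest CT of the group for Col4a1 and for Col4a3, whereas in control the earliest array was replicate 1 for Col4a1 and replicate 2 for Col4a3. Among the 17 gene assays detected in all 6 arrays, the median SD was 0.405 cycles in control and 0.607 in DS. In control both chains were less spread than that median (0.276 and 0.356). In DS, Col4a1 itself was the median (0.607) and Col4a3 had an SD of 0.595.

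Calls were common on this array: at the adjusted threshold of 0.05, limma called 92.2% of the 64 tested genes in one direction or the other. In DS, 71.9% were called higher and 20.3% lower, and the −ΔCT values of the groups did not overlap for 93.8%. That both chains were called and separated is therefore what most genes of the array showed. Their sizes placed them differently. A larger log2 fold change than that of Col4a1 was found for 38 of the 64 genes, and Col4a1 lay at −2.01 relative to the median of 4.40, which includes genes at their bound. A lower value than that of Col4a3 was found for 5 of the 64 genes, and Col4a3 lay at −15.01 relative to the median.

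Ordered by the change in CT alone, the 17 assays measured in all 6 arrays put Col4a1 sixth from the earlier-in-DS end, with a difference of −2.40 cycles. Col4a3 was the third from the other end, at 10.60 cycles later in DS. This order needs no normalizing gene.

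**Figure D2:**
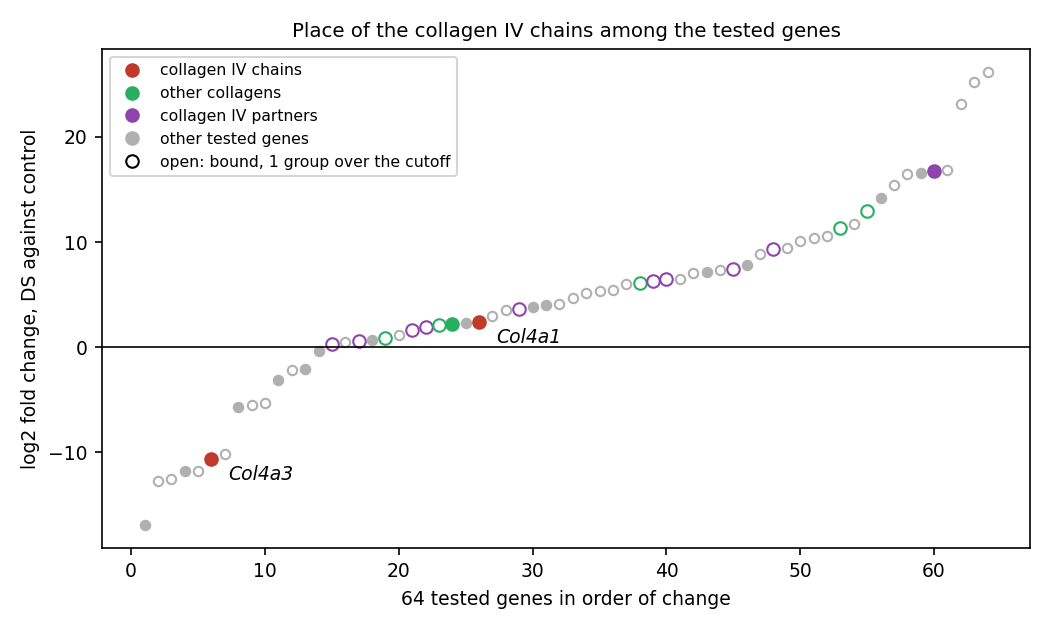
Log2 fold change (DS against control, relative to Hsp90ab1, Ccl7 and Egfr) of the 64 tested genes in ascending order, with the collagen IV chains in red, the other collagens in green, the collagen IV partners in purple and the other genes in grey; open circles are bounds, for genes with no CT at or under 36 in 1 of the groups. Col4a3 at −10.61 lies under 0, and Col4a1 at 2.39 lies near Col5a2 at 2.17. The collagens drawn open could not lie under 0, since control was set to the cutoff, and Col5a2 is the only other collagen drawn filled.

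The relation between the chains can be read within each array, where any normalizing gene cancels. The CT of Col4a3 minus the CT of Col4a1 was −10.22, −11.08 and −10.14 cycles in the control arrays. In the DS arrays it was 2.61, 2.91 and 2.03 cycles. Thus the Col4a3 assay crossed the threshold first in every control array and the Col4a1 assay did so in every DS array.

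The mean of this difference was −10.48 ± 0.521 (SD, n = 3) for control and 2.52 ± 0.447 (SD, n = 3) for DS. The groups differed by 13.00 cycles (standard error 0.40), with 12.17 cycles between the nearest arrays, and the exact two-sided permutation p was 0.1, the smallest possible with 3 against 3. The amplification efficiency of each assay is not given in the sources used here, so the difference within one array does not rank the amounts of the transcripts. The shift between groups shows an unequal change of the chains and does not say which of them moved.

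**Figure D3:**
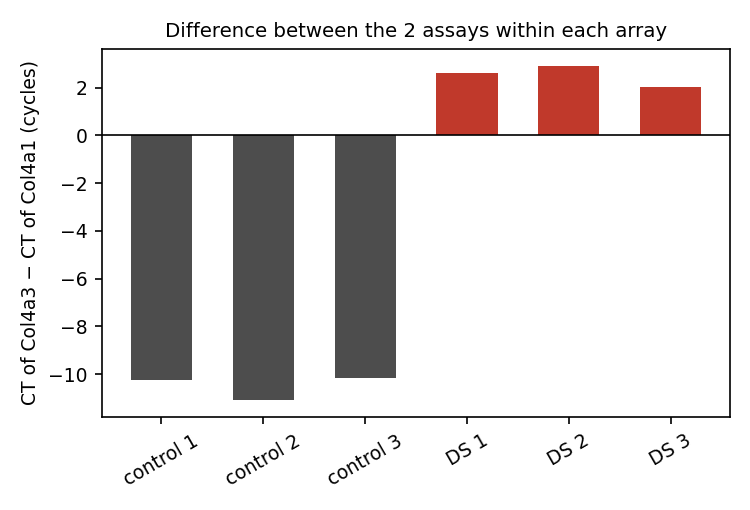
CT of Col4a3 minus CT of Col4a1 in cycles for each of the 6 arrays, as bars from 0. The 3 control arrays lie between −11.08 and −10.14 and the 3 DS arrays between 2.03 and 2.91, so the sign differs between the groups in every array.

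The direction of Col4a1 depended on the reference, and that of Col4a3 did not in any reference tried. Over the 6 arrays the 3 normalizing genes had an average CT from 30.2 to 30.4, a range of 0.197 cycles. The methods describe an automatic choice of reference genes, among those at a baseline level in both groups. The narrow range follows at least in part from that choice. Without normalization the log2 fold changes were nearly the same (2.40 for Col4a1 and −10.60 for Col4a3). Neither these values nor the single-gene values that follow are a check independent of that choice. With a single normalizing gene Col4a1 had 2.75 for Hsp90ab1, 2.71 for Ccl7 and 1.70 for Egfr. Col4a3 had −10.25, −10.28 and −11.30 with the same genes.

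The 5 housekeeping genes of the array gave another picture for Col4a1. Besides Hsp90ab1 they are B2m and Actb, which crossed the threshold in the 3 DS arrays but in none of the control arrays, Gusb, with a single CT of 41.1, and Gapdh, with none. With these 5 genes as reference, and a CT of 36 in place of each missing one, all tested genes shifted by −7.62 on the log2 scale. Col4a1 turned to −5.24 (95% confidence interval −6.35 to −4.12, limma) and Col4a3 to −18.23. The interval treats each CT set to 36 as measured. Hsp90ab1, the only one of the 5 with a CT in control, gave 2.75 for Col4a1 when used alone. With Actb and Gapdh alone the shift was −11.89, Col4a1 was at −9.50 and Col4a3 at −22.50. Of all called genes 78.0% were higher in DS in the reported fit, 30.4% after referring to the 5 housekeeping genes and 16.1% after referring to Actb plus Gapdh. With the median CT of the 17 assays as reference the shift was 2.95 in the other direction, and the values were 5.34 and −7.66. The 17 assays include both chains, and in DS replicate 1 the median, 29.66, was the CT of Col4a1 itself.

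**Figure D4:**
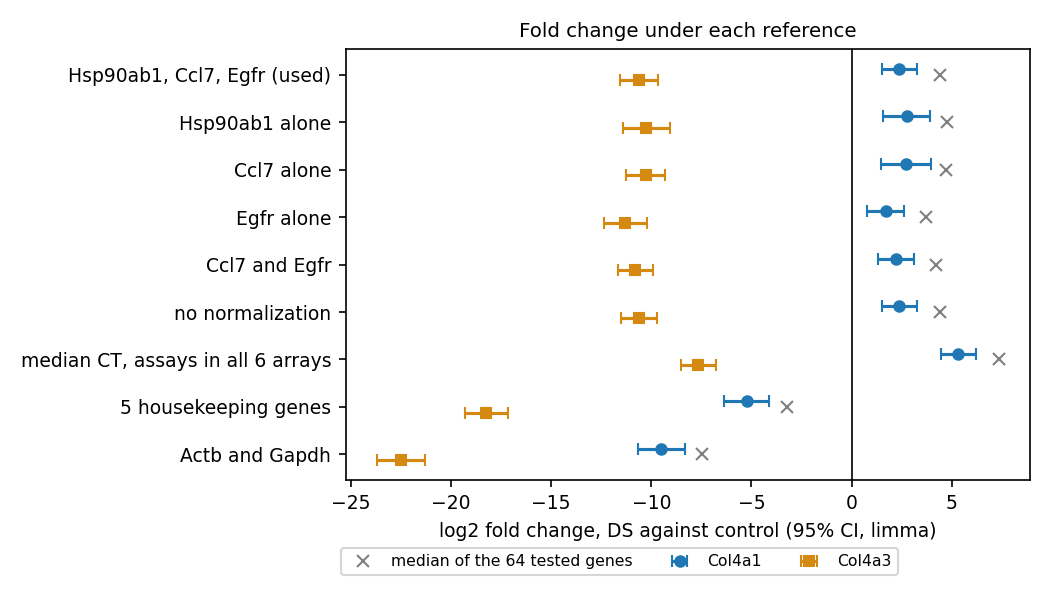
Log2 fold change (DS against control) of Col4a1 (circles) and Col4a3 (squares) with 95% confidence intervals from limma under 9 references, with the median of the 64 tested genes as crosses. Col4a3 lies under 0 in all 9, from −22.50 to −7.66, while Col4a1 is above 0 in 7 and at −5.24 and −9.50 with the housekeeping references; the distance between the chains is 13.00 in each.

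Control wells of the array bear on how these CT values can be read. The genomic DNA control, an assay of an untranscribed stretch, gave no CT in the control arrays and a CT of 33.08, 34.02 and 33.78 in the DS arrays. Col4a1 was earlier than it in the same DS arrays by 3.42, 3.47 and 2.96 cycles. Col4a3 was earlier by 0.81, 0.56 and 0.93 cycles, so in DS every Col4a3 CT lay within 1 cycle of the genomic DNA control. The part of genomic DNA in the Col4a3 level of the DS arrays was not tested. According to the methods the RNA had been treated with DNase, and a separate quality control run before the arrays is described as free of genomic DNA.

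The reverse transcription control, an assay of an RNA added with the kit, sits in 3 wells of each array. The first well gave a CT in DS alone, at 29.6 ± 0.615 (SD, n = 3). The second well gave 22.5 ± 0.699 (SD, n = 3) in control and, in DS, 39.69 and 41.0 with no CT in replicate 2. The third well gave a single CT of 38.03 in control and 32.1 ± 0.617 (SD, n = 3) in DS.

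Wells of this one assay thus spanned 15.29 cycles within control replicate 1, 10.13 within DS replicate 1, 12.05 within DS replicate 3 and 1.37 within DS replicate 2, where 2 of the wells had a CT. The span of DS replicate 2 leaves out the second well, which had no CT there. The change of Col4a3 between groups, 10.60 cycles, lay within the range of the other spans, 10.13 to 15.29 cycles. That of Col4a1, 2.40 cycles, was smaller than those. Between groups, the second well was later in DS, as Col4a3 was, and by more cycles, whereas the first and the third well went the other way. The SD between replicate arrays was at most 0.607 cycles for both chains. None of the positive PCR control wells reached the threshold. What sets the readings of these wells, and its part in the change of the collagen IV chains, was not tested. The gene of each well was taken from the deposited tables. Whether every well holds the assay named there was not tested, and a wrong assignment would change which gene the CT values given for Col4a1 and Col4a3 belong to.

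**Figure D5:**
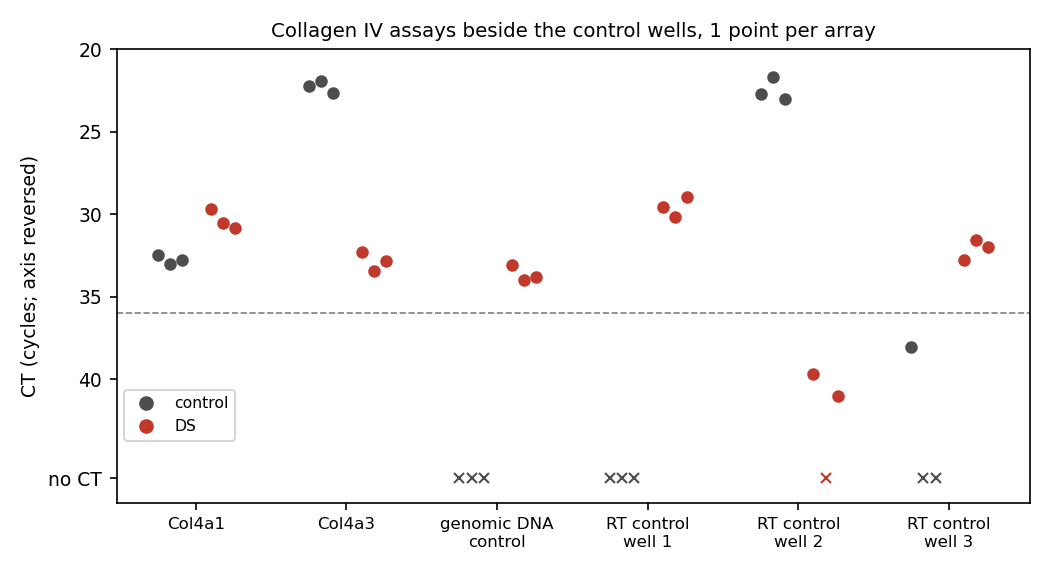
CT in cycles (reversed axis) of the collagen IV assays, the genomic DNA control and the 3 wells of the reverse transcription control, 1 point per array, with crosses for wells without a CT and a dashed line at the cutoff of 36. The range of Col4a3 in DS (32.27 to 33.46) overlaps that of the genomic DNA control (33.08 to 34.02), and the second reverse transcription well has its control and DS arrays in the opposite order to the first and the third.

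The genes most like Col4a1 were Ctsk and Col5a2. Likeness was taken as the root mean square difference of −ΔCT over the 6 arrays, each gene centred on its own mean, among the 13 other wound healing genes measured in all 6 arrays, without the normalizing genes. It was 0.453 for Ctsk, the cathepsin that degrades collagen in bone, 0.568 for Col5a2, a chain of the fibril-regulating type V collagen, and 1.17 for Igf1, a growth factor. Their log2 fold changes were 2.29, 2.17 and 3.86 beside the 2.39 of Col4a1, so Ctsk and Col5a2 differed from it by less than its standard error. Col4a3 had rank 10 of the 13 in this order, at 6.51.

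For Col4a3 the nearest gene was Vegfa, the main growth factor of blood vessels, with a likeness of 1.29 and a log2 fold change of −11.81. Egf followed at 2.59 and Ccl12 at 3.20, with log2 fold changes of −5.66 and −16.92. Vegfa was thus farther from Col4a3 than Igf1 was from Col4a1. With 6 arrays in 2 groups, likeness mostly reflects the difference between the groups.

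Against the other tested collagens of the array, Col4a1 shared their direction in the reported fit and Col4a3 did not. For most of them that direction was fixed in advance. The 7 others are the fibrillar chains Col1a1, Col1a2, Col3a1, Col5a1, Col5a2 and Col5a3 and the fibril-associated Col14a1. Of these, 6 were tested and all 6 were called higher in DS, beside 71.9% of all tested genes, whereas with the 5 housekeeping genes as reference 2 were higher and 4 lower. In the reported fit none was lower, and none at an unadjusted p under 0.05 (limma). For 5 of the 6 this was fixed in advance. They were detected in DS only, as 39 of the 64 tested genes were, and with control set to 36 they could not be called lower. Only Col5a2 could have gone either way. In 11 of 20 alternatives 5 were called, and the lost one was Col14a1 each time. Their median log2 fold change was 4.13, against 4.40 over all tested genes.

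Col5a2 alone among them was detected in all 6 arrays, with CT values of 23.76, 24.05 and 23.31 in control and 21.77, 21.63 and 21.17 in DS. Col5a3 gave 44.58, 42.73 and 43.98 in control, all over the cutoff, and 33.43, 34.01 and 34.33 in DS, so its log2 fold change of at least 2.07 is a bound. In DS the mean CT of Col5a3 and of Col14a1 was later than that of the genomic DNA control, 33.6, and that of the other 4 higher collagens was earlier. Col1a1 and Col1a2, the chains of type I collagen, gave no CT in control and means of 24.7 ± 0.478 and 23.1 ± 0.301 (SD, n = 3) in DS. Col4a1 was therefore, with Col5a2, one of the 2 higher collagens whose change is a measured value and not a bound.

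Genes whose products bind, cut or induce collagen IV were taken as a list of 16, of which 10 were tested. In DS 8 were called higher (limma), beside 71.9% of all tested genes. With the 5 housekeeping genes as reference 2 were higher and 6 lower. In the reported fit none was lower, but for 9 of the 10 this was fixed in advance. They were not detected in any control array by the cutoff, and with control set to it they could not be called lower. Only Itga2 was detected in control, and its CT values there (35.80, 36.01 and 34.28) lay so near the cutoff that little room was left for a fall. That none was lower therefore says little about these genes. The median log2 fold change of the 10 was 4.97.

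The receptors differed among themselves. Itga1 and Itga2 encode the α subunits of the main collagen-binding integrins. Itga1 had no CT in control and 26.57, 27.30 and 26.0 in DS, so that the log2 fold change was at least 9.37 (adjusted p = 2.78e-08, limma). Itga2 had 35.80, 36.01 and 34.28 in control, the second just over the cutoff, and 19.68, 17.98 and 18.02 in DS. Its change was 16.79 on the log2 scale with a standard error of 0.59 (limma, adjusted p = 1.27e-08). Both subunits were thus far earlier in all DS arrays, by more than the Col4a1 change.

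Itgb1, the β subunit that both α subunits need to reach the cell surface, was not called. It gave no CT in control and 35.50, 34.80 and 36.03 in DS, close to the cutoff (bound 0.56, adjusted p = 0.176, limma). Itgav, a subunit of the integrin through which the Col4a3 fragment has been reported to act, had a bound of 1.96 and CT values of 34.40, 34.01 and 33.68 in DS, its partner Itgb3 gave a single CT of 38.15, and the laminin-binding Itga3 and Itga6 gave none.

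The gelatinases Mmp2 and Mmp9, which cleave type IV collagen, were detected in DS only. Mmp2 had CT values of 29.11, 28.60 and 31.36, with a bound of 6.30 on the log2 scale (adjusted p = 1.83e-05, limma), and Mmp9 had 27.58, 28.16 and 30.01, with a bound of 7.41 (adjusted p = 2.64e-06, limma). In both genes DS replicate 3 was the latest array. Timp1, an inhibitor of these enzymes, gave a single CT of 38.12, over the cutoff.

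Plg, the precursor of plasmin, and Plat, an activator of it, had bounds of 3.63 and 1.63, and Plau, the other activator, was not called (0.29, adjusted p = 0.358, limma). The DS means of these 3 genes, 32.4 ± 0.596, 34.4 ± 0.564 and 35.7 ± 0.305 (SD, n = 3), lay on both sides of that of the genomic DNA control, 33.6. Among the 8 partners called higher, Itgav and Plat had a later mean CT in DS than that control and 6 an earlier one. Of the inducers of matrix synthesis, Ctgf had a bound of 6.48 (adjusted p = 5.30e-07, limma) and Tgfb1 gave a single CT of 39.81.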

How the data were processed

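Expression was measured with SYBR Green PCR arrays in 3 control and 3 DS cultures. The deposited CT values, a score per array and well as the authors' instrument gave it, carry no normalization or cutoff, and a missing CT means that none was recorded. Their deposited ratio is 2 to the power of −ΔCT as 1 value per group without spread; here it was matched within 0.00242% for the 89 gene assays by averaging ΔCT first and taking the geometric mean CT of Hsp90ab1, Ccl7 and Egfr.

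From the CT values, those over 36 or missing were set to 36, and the arithmetic mean CT of the 3 normalizing genes was subtracted. The 64 wound healing genes at or under 36 in at least 1 array entered a fit with limma 3.58.1 (R 4.3.3), whose two-sided p were Benjamini-Hochberg adjusted over these genes. For a gene without a CT at or under 36 in a group, the fold change is a bound and its p treats the cutoff as measured. limma replaced the t-test per gene of the methods, which was an alternative. The fit was tested on 50 simulated sets of these 64 genes, with 20 genes changed by 3 on the log2 scale. It called 100% of the changed and 1.91% of the unchanged genes. In the measured data limma called 59 of the 64 genes, and 39 were detected in DS only. The rate of wrong calls among genes with a whole group set to 36 was not tested. No well had an equal CT in 2 arrays.

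Named genes were both collagen IV chains, the fixed lists (other collagens, partners, cell type markers), the reference genes and the 3 genes most alike to each chain. Members and lists were chosen with earlier results of these data known. Arrays have no read depth, and their number, 3 per group, limits the precision. Alternatives were other references, CT cutoffs of 35 and 40, a stricter filter, a replicate block, other tests and leaving out each array; the references Ccl7 alone and Egfr alone were added after seeing the data. The in vivo experiments were not analysed here, and 1 gene of the partner list is counted but not reported by name.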

Additional observations from a re-analysis of the deposited data

Results flagged for a closer look

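In 3 wells outside the gene comparison, a signal appeared in the DS arrays that lay above the level of the control arrays, and in another well the order was the opposite. The genomic DNA control had a mean CT of 33.6 ± 0.488 (SD, n = 3) in DS and no CT in 3 of 3 control arrays. The first well of the reverse transcription control had a mean CT of 29.6 ± 0.615 (SD, n = 3) in DS and no CT in control. The third well of the same control had a mean CT of 32.1 ± 0.617 (SD, n = 3) in DS and a CT in 1 control array. The second well of it went the other way, with a mean CT of 22.5 ± 0.699 (SD, n = 3) in control against 39.69, 41.0 and no CT in DS.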

How the results depend on the processing

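Col4a3 kept its direction and its call in the 22 alternatives with a test, and Col4a1 did so in 19. The CT cutoffs, the stricter filter, the replicate block and the other tests could not change the direction. They left both values as they were and bear on the call alone. The authors' deposited group means, which allow no test, gave the same directions (2.41 for Col4a1 and −10.58 for Col4a3). Col4a1 reversed when referred to the 5 housekeeping genes (−5.24) or to Actb plus Gapdh (−9.50). It kept its value of 2.39 but was no longer called after adjustment of the methods' t-test (adjusted p = 0.0546). That was the highest p over its alternatives. The lowest, 4.03e-07 (limma, adjusted), belongs to the reversed value with Actb plus Gapdh and is no measure of a rise. The methods' t-test was also counted unadjusted. With each array left out in turn Col4a1 ranged from 2.05 to 2.62, Col4a3 from −10.90 to −10.31 and the difference between the chains within an array from 12.70 to 13.24 cycles, with no call lost.

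Counts followed the reference. With the 5 housekeeping genes, 2 collagen IV partners were higher and 6 lower, 2 other collagens higher and 4 lower, and 17 of all tested genes higher and 39 lower. With Actb and Gapdh these were 1 and 9, 1 and 4, and 10 and 52. With only the genes detected in all 6 arrays, 0 partners, 1 other collagen and 8 of all tested genes were higher and 6 of all tested genes lower, out of 16 genes tested. With the adjusted methods' t-test 4 partners and 27 of all tested genes were higher. With an array left out, the partners were 8 to 9 higher and 0 lower, and the other collagens 5 to 6 higher and 0 lower. Genes detected in DS only could not be called lower there, since control was set to the cutoff. All tested genes were 44 to 46 higher and 13 lower. Same-numbered arrays had r from −0.20 to 0.08 over 17 assays, and differently numbered ones from −0.34 to 0.36. With 3 arrays per group this shows no pairing by number and cannot exclude one. With the replicate number as a block, the value of Col4a1 stayed 2.39 and that of Col4a3 −10.61, both called, 45 genes were higher and 13 lower, and among the other collagens Col14a1 was no longer called.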
